A study of Homo sapiens with 6 samples.

Results

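The 43 genes described here encode the machinery of macroautophagy and the lysosome that receives its cargo, from the ULK1 kinase to the cathepsins. They were taken by gene symbol, and every probe whose only symbol in the platform annotation was one of theirs was used, which gave 71 of the 48803 probes on the array. A probe was kept for testing where its detection score, which runs from 0 to 1, was above 0.95 on at least 3 of the 6 arrays. By that filter 56 of the 71 probes were kept, of 21928 on the whole array, and these represented 41 of the 43 genes.

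OVSAYO, an established human ovarian clear cell carcinoma line, was transfected with hairpin inhibitors, short RNAs that bind a mature microRNA and block it. The control group received a negative control inhibitor at 66 nM, and the inhibitor group received the same total dose, split into 44 nM directed at miR-30a and 22 nM directed at miR-30d. RNA from 3 samples of each group was collected 48 hours after transfection and measured on single-colour Illumina expression arrays, 1 array per sample. In the design text the reagents are called mimics, but both the labels of the samples and the protocol call them inhibitors, and the latter was followed. All 6 samples came from 1 cell line and all were transfected. The labels call the 3 samples of a group biological replicates without saying what separated them, so the spread between them may be partly technical.

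Macroautophagy encloses cytoplasm in a double membrane, the autophagosome, and delivers it to the lysosome for breakdown. The ULK1 complex and a class III PI3-kinase start the membrane, lipid-transfer proteins enlarge it, and 2 ubiquitin-like conjugation reactions attach ATG12 to ATG5 and members of the ATG8 family to lipid. Cargo receptors then tie selected material to the ATG8 proteins. MicroRNAs of the miR-30 family, which are abundant in epithelial tissues, repress messages that carry a match to their seed, and BECN1, ATG5, BNIP3L, ATG12 and ATG2B have been reported among their targets. An expression array reads the messages of these genes and neither their proteins nor the flux through the pathway.

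The mature miR-30 sequences are shown because the members of the family share the seed through which they recognise targets. Bases 2 to 8, the seed, are in capitals, and the sequences run 5′ to 3′ as RefSeq gives them for GRCh38.p14. The inhibited miR-30a comes from chr6:71403595-71403616 on the minus strand, within its host gene LINC00472. The other sequences shown, miR-30c at chr1:40757300-40757322 and miR-30e at chr1:40754371-40754392, lie on the plus strand within NFYC and were not named as targets of the inhibitors.
hsa-miR-30a-5p: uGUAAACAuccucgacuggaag
hsa-miR-30c-5p: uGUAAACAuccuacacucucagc
hsa-miR-30e-5p: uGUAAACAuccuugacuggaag
All 3 carry the seed GUAAACA and differ only downstream of it. These arrays carry no measurement of mature microRNA levels, but they do read the host transcripts: LINC00472 had a log2 fold change (inhibitor minus control) of 0.10 ± 0.09 (SE, adjusted p = 0.710) and NFYC one of 0.05 ± 0.08 (SE, adjusted p = 0.853), both by limma.

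The 6 arrays had mean raw signals of 222.6 to 258.5, and between 43.4% and 45.2% of all probes were detected on each. All 5 clear cell markers with a named probe (ANXA4, ARID3A, GLRX, NAPSA and PAX8) and all 6 epithelial markers were detected on all 6 arrays, while COL3A1, PDGFRB, PTPRC, ITGAM and VWF, markers of fibroblasts, leukocytes and endothelium, were detected on none. From the same lists DCN, LUM, PDGFRA, CD14, CD68 and PECAM1 were detected on all 6 arrays. A gene counted as detected through any 1 of its probes, and the other probes of DCN, LUM, PDGFRA and CD14 were detected on 0 arrays. Every CD68 probe and the only PECAM1 probe were detected on all 6 arrays. COL1A1, COL1A2, CD3E, CDH5, KDR and TEK, also from these lists, were detected on 1 to 3 arrays each. Within their groups control replicate 2 and inhibitor replicate 3 stood apart: on the first principal component, which held 42.1% of the variance, the controls lay at −4.12, −15.7 and −1.67 and the inhibitor arrays at 17.5, 13.2 and −9.11 (replicates 1, 2 and 3). Across the whole array 0 of 21928 probes passed an adjusted p of 0.05 in limma's test (0.00%), with 0.440 the lowest adjusted p, and 2199 (10.0%) had an unadjusted p under 0.05.

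None of the 56 autophagy and lysosome probes passed the adjusted threshold, and their adjusted p-values ran from 0.440 to 0.997. At an unadjusted p under 0.05 there were 7 of 56 probes, or 12.5%, beside 10.0% of all kept probes. Without control replicate 2 there were 4 (7.14%, beside 6.79% of all probes in that fit). WIPI1, ATG10, ATG12 and MAP1LC3A were on the higher side (4 probes, against 4.83% of all probes) and ATG13, ATG9A and ATG16L1 on the lower (3 probes, against 5.19%). In 12 probes (21.4%) the groups did not overlap, compared with 15.5% of the whole array. Of these 8 had every inhibitor array above every control (8.40% of all probes) and 4 had every inhibitor array below (7.12%). These shares lie near the background and are not a result about these genes.

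Fold changes of the members were small. In bulk RNA a difference in message per cell and one in the share of cells that carry it cannot be told apart. They ranged from −0.34 for ATG13 to 0.27 for MAP1LC3A on the log2 scale, within −0.72 to 0.56 over all kept probes. Their median was 0.03 and their median size 0.087, while all kept probes had a median size of 0.082. The median standard error of a member was 0.087, so a typical fold change was as large as its own error. A positive fold change was found for 36 of 56 probes (64.3%, against 51.7% of all kept probes). With arrays centred on their medians in place of quantile normalization, the median of all probes moved to 0.10, and 42 of the 56 member probes lay above that shifted median. The medians used for centring were taken over all 48803 probes on the array. Since 43.4% to 45.2% of these were detected, the centring rests on signals of undetected probes. The shift differed between probes: the bright ULK1 probe ILMN_1735052 moved from 0.10 to 0.25 and the dim ATG13 probe from −0.34 to −0.31. Members were not matched for brightness to all probes, so a part played by brightness was not tested. Under that centring 22 member probes had an unadjusted p under 0.05, 21 of them on the higher side and 1 on the lower (39.3% in all). Over all probes 4099 were higher and 248 lower (19.8% in all), and 0 member probes passed the adjusted threshold.

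**Figure D1:**
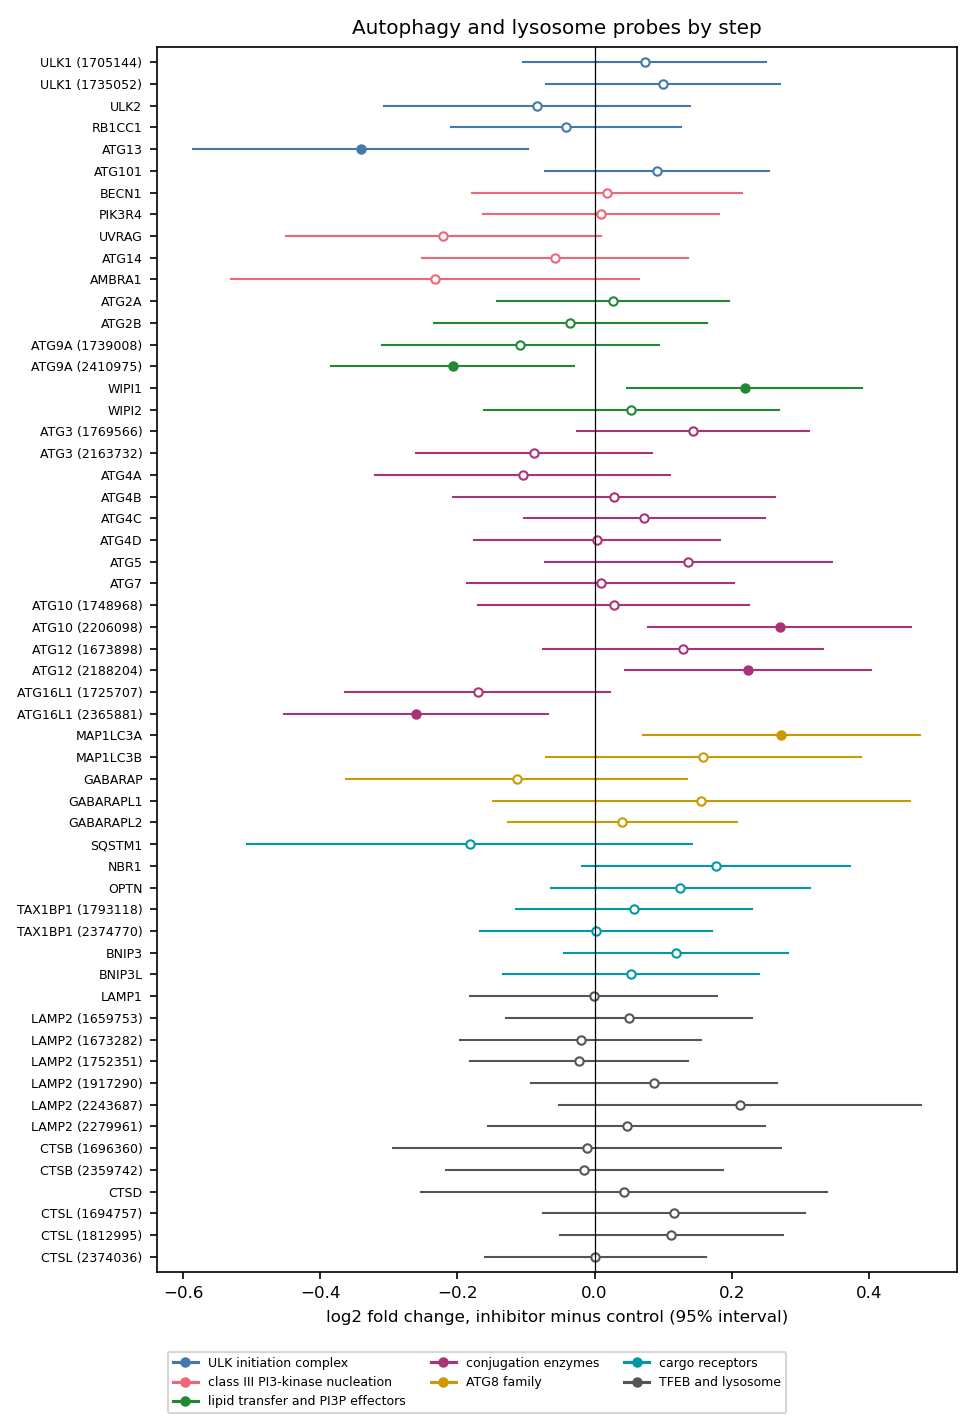
Log2 fold change (inhibitor minus control, horizontal axis) of the 56 kept probes, 1 per line, coloured by step of the pathway. Lines are 95% intervals and filled points have an unadjusted p under 0.05; the 7 filled points lie on both sides of 0, and none passed the adjusted threshold.

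**Figure D2:**
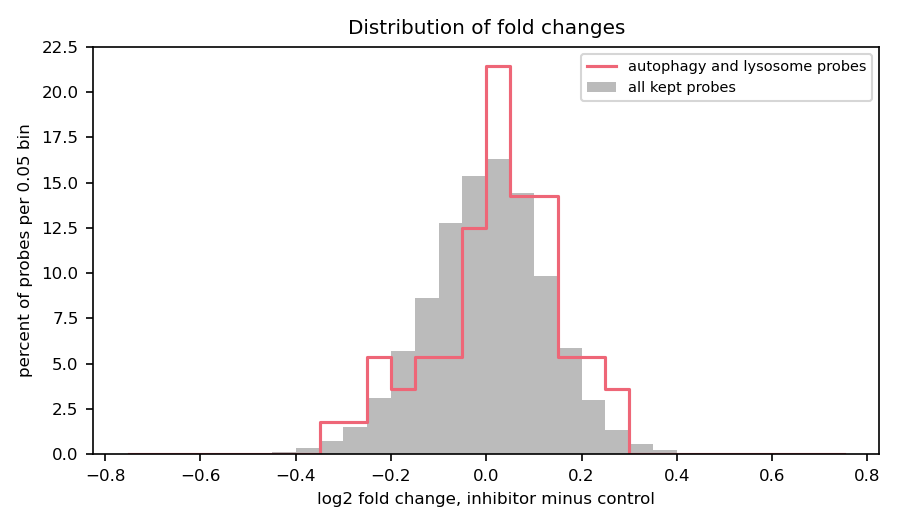
Share of probes (percent, vertical axis) in each log2 fold change bin of width 0.05 (horizontal axis), with grey bars for all 21928 kept probes and a line for the 56 autophagy and lysosome probes. Both distributions lie around 0, with medians of 0.005 and 0.03.

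Autophagy starts at the ULK complex, in which the kinases ULK1 and ULK2 are held by the scaffold RB1CC1 (FIP200) together with ATG13 and ATG101. Of its 6 kept probes 3 had positive and 3 negative fold changes (4 and 2 with median centring). ATG13, the subunit that links the kinase to the scaffold, had the lowest fold change of all members. Its probe ILMN_1730930 measured 5.20, 4.91 and 5.22 in control replicates 1, 2 and 3 and 4.89, 4.84 and 4.58 in inhibitor replicates 1, 2 and 3, as normalised log2 signals. All inhibitor arrays lay below all controls, but the highest inhibitor array and control replicate 2 were nearly level. This gave a log2 fold change of −0.34 ± 0.11 (SE, 95% interval −0.58 to −0.10) and an adjusted p of 0.445 in limma's test. The ATG13 signal was dim, with raw values of 48.6 to 63.5 where the array medians were 44.1 to 49.9.

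ULK1, the kinase that integrates nutrient signals, was read by a pair of bright probes. ILMN_1735052 gave 11.06, 11.06 and 10.98 in the controls and 11.19, 11.17 and 11.04 in the inhibitor arrays. The groups overlapped, since inhibitor replicate 3 sat at the level of the controls, and the log2 fold change was 0.10 ± 0.08 (SE, adjusted p = 0.667). The other ULK1 probe had a fold change of 0.07 and RB1CC1 one of −0.04, each on the log2 scale and under 1 SE from 0. ATG101, which stabilises ATG13, had non-overlapping groups at a log2 fold change of 0.09 ± 0.07 (SE, adjusted p = 0.681). The separation was slight, with 9.3231 in control replicate 3 against 9.3245 in inhibitor replicate 2. ULK2 was at the limit of detection, on 2 control arrays and 1 inhibitor array, and had a log2 fold change of −0.08 ± 0.10 (SE).

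The class III PI3-kinase complex makes the lipid PI3P on the forming membrane. Its 5 kept probes had a median log2 fold change of −0.06, with 2 positive and 3 negative (3 and 2 with median centring, of which 2 lay above the median of all probes in that scaling). BECN1, the scaffold of the complex and a reported miR-30 target, measured 7.98, 8.16 and 8.15 in the controls and 8.11, 8.00 and 8.23 in the inhibitor arrays (ILMN_1744822). The groups were interleaved, with the lowest value in a control and the highest in an inhibitor array. The log2 fold change of BECN1 was 0.02 ± 0.09 (SE, adjusted p = 0.957), and its 95% interval spanned folds of 0.883 to 1.16. That interval holds for quantile normalization: with median centring BECN1 was at 0.15, where the median of all probes was 0.10.

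AMBRA1, a BECN1-binding regulator, had the lowest fold change of this complex. Its values were 5.09, 4.58 and 4.59 in the controls and 4.37, 4.54 and 4.65 in the inhibitor arrays (ILMN_1662681). Control replicate 1 alone stood above the other 5 arrays, which overlapped, and the probe was detected on 2 control arrays and 1 inhibitor array. Its log2 fold change was −0.23 ± 0.13 (SE, adjusted p = 0.577), and −0.064 without control replicate 1. UVRAG, a partner of BECN1 in endosomal trafficking, was similar at −0.22 ± 0.10 (SE, adjusted p = 0.512), with control replicate 3 inside the range of the inhibitor arrays. PIK3R4, the regulatory subunit VPS15, was at 0.01 and ATG14, which directs the complex to autophagy, at −0.06. The catalytic subunit PIK3C3 had no kept probe, since its only probe was detected on 1 control array and 1 inhibitor array.

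Membrane growth uses ATG9A, a lipid scramblase on vesicles, the lipid-transfer proteins ATG2A and ATG2B, and the PI3P-binding proteins WIPI1 and WIPI2. Their 6 kept probes split into 3 positive and 3 negative fold changes (5 and 1 with median centring, of which 3 lay above the median of all probes). WIPI1 (ILMN_1781386) measured 7.36, 7.29 and 7.34 in the controls and 7.62, 7.56 and 7.46 in the inhibitor arrays. Every inhibitor array was above every control, and the controls agreed to within 0.04 (SD). Its log2 fold change was 0.22 ± 0.08 (SE, 95% interval 0.05 to 0.39, adjusted p = 0.457 by limma). WIPI2, the paralogue that recruits ATG16L1, had overlapping groups and a log2 fold change of 0.05 ± 0.10 (SE).

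ATG9A lay on the other side. Its probe ILMN_2410975 measured 8.71, 8.59 and 8.60 in the controls and 8.47, 8.48 and 8.32 in the inhibitor arrays. No inhibitor array reached the lowest control. For this probe the log2 fold change was −0.21 ± 0.08 (SE, adjusted p = 0.463), and the second kept ATG9A probe had the same sign at −0.11 ± 0.09 (SE, adjusted p = 0.696) with overlapping groups. ATG2B, a reported miR-30d target, measured 6.18, 6.02 and 6.27 in the controls and 6.23, 6.10 and 6.04 in the inhibitor arrays (ILMN_1735006). The groups overlapped fully, and the log2 fold change was −0.04 ± 0.09 (SE, 95% interval −0.23 to 0.16, adjusted p = 0.910). ATG2A was at 0.03.

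**Figure D3:**
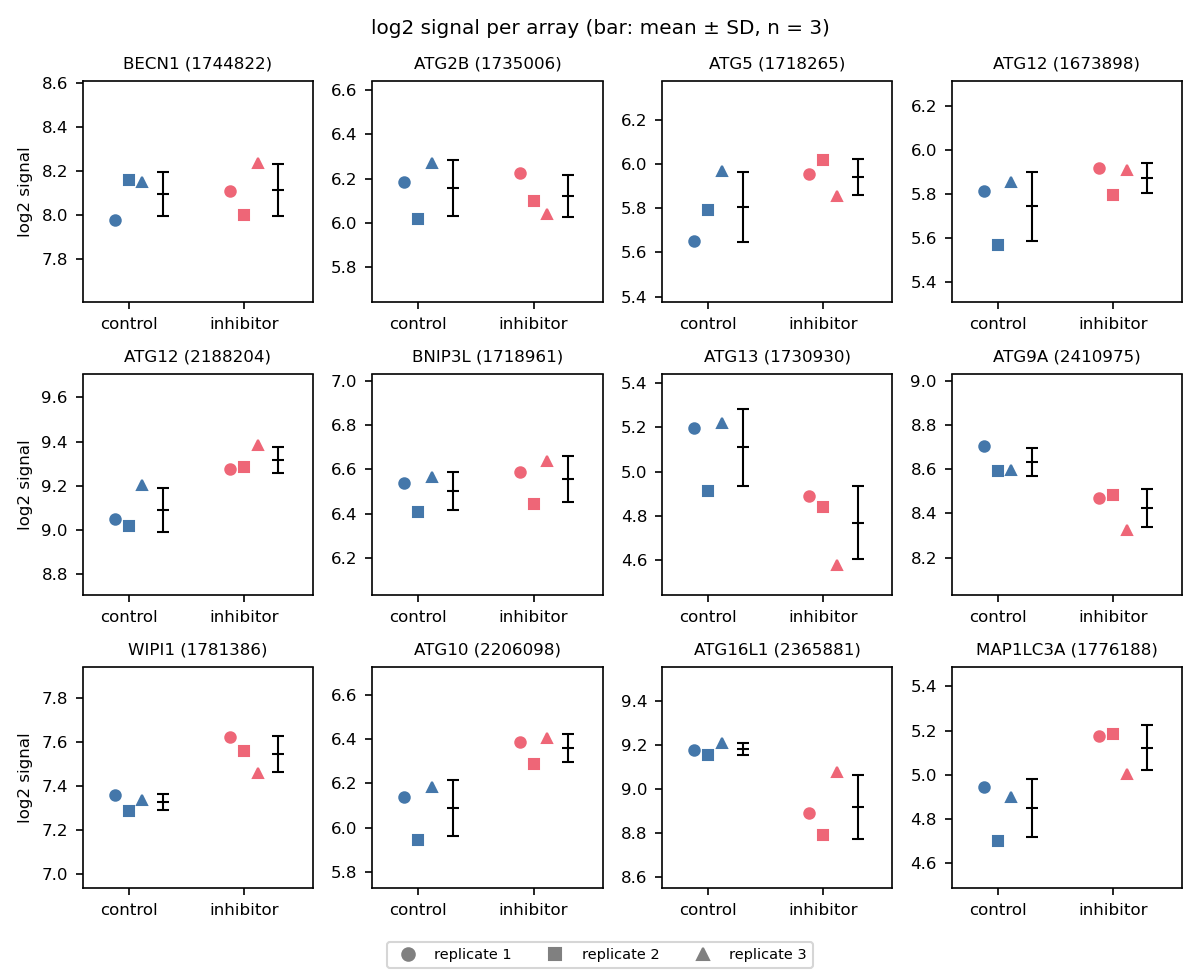
Normalised log2 signal (vertical axis, each panel spanning 1 log2 unit around its own centre) in control and inhibitor arrays. Plotted are the kept probes of the reported targets and the other member probes with an unadjusted p under 0.05. Symbols mark replicates 1, 2 and 3 and bars the mean ± SD; the groups are separate for ATG13, ATG9A, WIPI1, ATG10, ATG16L1, MAP1LC3A and 1 of the ATG12 probes, and overlap for the other plotted probes.

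The conjugation enzymes fix ATG12 to ATG5 and the ATG8 proteins to phosphatidylethanolamine. Of 14 kept probes 10 had positive and 4 negative fold changes (11 and 3 with median centring), and the median was 0.03. ATG10, the E2-like enzyme that transfers ATG12, had the highest fold change of this step. ILMN_2206098 gave 6.14, 5.95 and 6.19 in the controls and 6.39, 6.29 and 6.41 in the inhibitor arrays. The groups did not overlap, and control replicate 2 was the lowest array. The log2 fold change was 0.27 ± 0.09 (SE, 95% interval 0.08 to 0.46) with an adjusted p of 0.440, while the second ATG10 probe stood at 0.03 ± 0.09 (SE, adjusted p = 0.930).

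ATG12, the ubiquitin-like protein that ATG10 transfers and a reported miR-30d target, had a positive fold change on both of its probes. ILMN_2188204 gave 9.05, 9.02 and 9.20 in the controls and 9.28, 9.28 and 9.38 in the inhibitor arrays. Every inhibitor array was above every control. Its log2 fold change was 0.22 ± 0.08 (SE, 95% interval 0.04 to 0.40, adjusted p = 0.459). The dimmer probe ILMN_1673898 gave 5.81, 5.57 and 5.85 in the controls and 5.92, 5.79 and 5.91 in the inhibitor arrays. Here the groups overlapped through inhibitor replicate 2, and the log2 fold change was 0.13 ± 0.09 (SE, adjusted p = 0.645).

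ATG5, the acceptor of ATG12 and a reported miR-30 target, measured 5.65, 5.79 and 5.97 in the controls and 5.95, 6.02 and 5.85 in the inhibitor arrays (ILMN_1718265). Control replicate 3 lay among the inhibitor arrays, so the groups overlapped. ATG5 had a log2 fold change of 0.14 ± 0.09 (SE, 95% interval −0.07 to 0.35, adjusted p = 0.635), which was 0.061 without control replicate 1 and 0.22 without control replicate 3. ATG16L1, which binds the ATG12 and ATG5 conjugate and places it on the membrane, had the opposite sign. Its probe ILMN_2365881 measured 9.18, 9.16 and 9.21 in the controls and 8.89, 8.79 and 9.08 in the inhibitor arrays. All inhibitor arrays were below the closely grouped controls, with a log2 fold change of −0.26 ± 0.09 (SE, 95% interval −0.45 to −0.07, adjusted p = 0.448). The second ATG16L1 probe also had separate groups, at −0.17 ± 0.09 (SE, adjusted p = 0.537), although its inhibitor replicate 3 came within the second decimal of the controls at 8.77 against 8.78.

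The 2 kept probes of ATG3, the E2-like enzyme for the ATG8 proteins, disagreed in direction. One had separate groups at a log2 fold change of 0.14 ± 0.08 (SE, adjusted p = 0.549) and the other overlapping groups at −0.09 ± 0.08 (SE, adjusted p = 0.710). The negative probe was dim, with raw values of 57.1 to 63.1, where the positive one had 668.6 to 959.8. ATG7, the E1-like enzyme shared by both reactions, was at 0.01 ± 0.09 (SE). The ATG4 proteases, which trim ATG8 precursors and remove the lipid again, lay between −0.10 (ATG4A) and 0.07 (ATG4C), with ATG4B at 0.03 and ATG4D at 0.00, and all 4 had overlapping groups. In ATG4B inhibitor replicates 1 and 3 lay at 8.93 and 9.36, below and above all controls.

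The ATG8 family supplies the lipid-bound proteins that mark the autophagosome and bind cargo receptors. All 5 genes had 1 kept probe, 4 with positive and 1 with a negative fold change in every scaling tried, and a median of 0.16. MAP1LC3A (ILMN_1776188) had the highest fold change of all members. It measured 4.95, 4.70 and 4.90 in the controls and 5.18, 5.18 and 5.00 in the inhibitor arrays. The groups did not overlap, and the log2 fold change was 0.27 ± 0.09 (SE, 95% interval 0.07 to 0.47, adjusted p = 0.448). The signal was close to background, with raw values of 54.9 to 65.3, and a second MAP1LC3A probe annotated to the same transcript was detected on 0 arrays.

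MAP1LC3B, the form of LC3 most used as a marker of autophagosomes, had a log2 fold change of 0.16 ± 0.10 (SE, adjusted p = 0.619), with 8.30, 8.61 and 8.46 in the controls and 8.68, 8.44 and 8.72 in the inhibitor arrays. Inhibitor replicate 2 lay inside the control range. GABARAPL1 had the same fold change, 0.16 ± 0.14 (SE, adjusted p = 0.710), from 7.79, 7.44 and 7.80 in the controls and 8.04, 7.93 and 7.53 in the inhibitor arrays. Its low values were in control replicate 2 and inhibitor replicate 3, the arrays that stood apart. GABARAP, with 5.18, 5.38 and 4.94 in the controls and 5.01, 5.18 and 4.98 in the inhibitor arrays (ILMN_2050109), had a log2 fold change of −0.11 ± 0.11 (SE, adjusted p = 0.740) and overlapping groups. GABARAPL2 was at 0.04 ± 0.08 (SE).

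Cargo receptors join ubiquitinated proteins or mitochondria to the ATG8 proteins. Of their 7 kept probes 6 had positive fold changes and 1 a negative one, SQSTM1, in every scaling tried. SQSTM1 (p62), a receptor that is itself degraded by autophagy, measured 9.89, 9.79 and 9.95 in the controls and 9.29, 9.86 and 9.94 in the inhibitor arrays (ILMN_1662618). Inhibitor replicate 1 alone was low and the other 5 arrays overlapped. The log2 fold change was −0.18 ± 0.15 (SE, adjusted p = 0.682) with that array and 0.02 without it. The probe also had the widest bead error of all members: the standard error of its signal over the beads of 1 array was 8.65% to 14.0%, from 18 to 34 beads, where the median over member probes was 3.14%.

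NBR1, a receptor related to SQSTM1, had the highest fold change of the group. It measured 5.30, 5.46 and 5.23 in the controls and 5.42, 5.48 and 5.61 in the inhibitor arrays (ILMN_1735333). Control replicate 2 lay inside the inhibitor range, and the log2 fold change was 0.18 ± 0.09 (SE, adjusted p = 0.525). BNIP3L (NIX), a mitophagy receptor and a reported miR-30 target, measured 6.54, 6.40 and 6.56 in the controls and 6.59, 6.44 and 6.64 in the inhibitor arrays (ILMN_1718961). The groups overlapped, and the log2 fold change was 0.05 ± 0.08 (SE, 95% interval −0.13 to 0.24, adjusted p = 0.848). Its relative BNIP3 had separate groups at 0.12 ± 0.07 (SE, adjusted p = 0.603), OPTN was at 0.13 ± 0.09 (SE, adjusted p = 0.630), and the TAX1BP1 probes were at 0.06 and 0.00.

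Taken as a group, the 5 reported miR-30 targets had 6 kept probes, of which 5 had positive fold changes and ATG2B a negative one (with median centring 5 lay above the shifted median of all probes and ATG2B below it). Their median log2 fold change was 0.09, beside 0.03 for the other 50 member probes and 0.005 for all kept probes. ATG12 supplied 2 of the 6 probes, at 0.22 and 0.13, so this median rests partly on 1 gene. The probes of ATG5, BNIP3L, BECN1 and ATG2B were at 0.14, 0.05, 0.02 and −0.04. Of the 6 probes 1, the brighter ATG12 probe, had an unadjusted p under 0.05, and 0 passed the adjusted threshold. Target sites were not examined here, since no 3′ UTR sequence was used.

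Lysosomes were represented by the membrane proteins LAMP1 and LAMP2, the proteases CTSB, CTSD and CTSL, and TFEB, the transcription factor that drives lysosomal and autophagy genes. TFEB was detected on 0 of 6 arrays and could not be tested. The 13 kept lysosomal probes had a median log2 fold change of 0.04, with 8 positive and 5 negative. With median centring 13 were positive and 0 negative, all 13 above the median of all probes in that scaling. That median was not matched for brightness, and the 13 probes read 5 genes. LAMP1, an abundant glycoprotein of the lysosomal membrane, measured 12.65, 12.46 and 12.55 in the controls and 12.62, 12.49 and 12.55 in the inhibitor arrays. The groups coincided, with a log2 fold change of −0.00 ± 0.08 (SE, adjusted p = 0.997).

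LAMP2, which is also needed for chaperone-mediated autophagy, was read by 6 kept probes that differed in sign. The highest was ILMN_2243687, with 8.38, 8.19 and 8.19 in the controls and 8.67, 8.55 and 8.18 in the inhibitor arrays. Inhibitor replicate 3 was the lowest of all 6 arrays while the other inhibitor arrays were above the controls, and the log2 fold change was 0.21 ± 0.12 (SE, adjusted p = 0.573). The lowest was ILMN_1752351, with 10.03, 9.99 and 9.99 in the controls and 9.96, 9.97 and 10.02 in the inhibitor arrays, a log2 fold change of −0.02 ± 0.07 (SE, adjusted p = 0.930). The other 4 LAMP2 probes lay between −0.02 and 0.09. The files annotate these probes to different LAMP2 transcripts, and which splice forms each detects was not examined.

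Among the cathepsins, the cysteine protease CTSL had probes at log2 fold changes of 0.12, 0.11 and 0.00. The probe at 0.11 ± 0.07 (SE, adjusted p = 0.619) had separate groups, with 10.15, 10.14 and 10.21 in the controls and 10.32, 10.28 and 10.23 in the inhibitor arrays. Both CTSB probes were at −0.01. CTSD, the main aspartic protease of the lysosome, measured 9.23, 8.99 and 9.01 in the controls and 9.30, 9.29 and 8.78 in the inhibitor arrays. Inhibitor replicate 3 was again the lowest array, and the log2 fold change was 0.04 ± 0.13 (SE, adjusted p = 0.928).

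TFEB is known to bind the CLEAR element, a palindrome found in lysosomal promoters, of which TCACGTGA is the inner part. Motifs were searched, after the data had been seen, in the 300 bases from 250 before to 50 after each gene's start (RefSeq, GRCh38.p14), where 36 of the 43 genes had an entry. The full palindrome was found in 0 of the 36 promoters and in 0.381% of all 27305 promoters. The inner TCACGTGA was found in ATG3 and LAMP1 (2 genes, 5.56%), and in 1.04% of all promoters. CACGTG, which lies inside both longer motifs, was found in ATG14, ATG3, BNIP3, CTSD and LAMP1 (5 genes, 13.9%), and in 7.43% of all. All of these motifs read the same on both strands. The windows that hold the core are shown with it in capitals, because LAMP1 carries it at 2 places and ATG3 just inside the transcript.
ATG3 chr3:112561941-112561968 minus strand: gagtctagtgTCACGTGAggccccggtg
LAMP1 chr13:113297200-113297227 plus strand, upstream site: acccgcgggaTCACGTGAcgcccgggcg
LAMP1 chr13:113297227-113297254 plus strand, site at the start: gcggcgcagcTCACGTGAcaagcgctgc
The LAMP1 cores begin 29 and 2 bases before the gene's start, and the ATG3 core begins 4 bases after it. The 3 kept probes of ATG3 and LAMP1 had log2 fold changes of 0.14, −0.09 and −0.00. A match describes the letters of the window only.

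**Figure D4:**
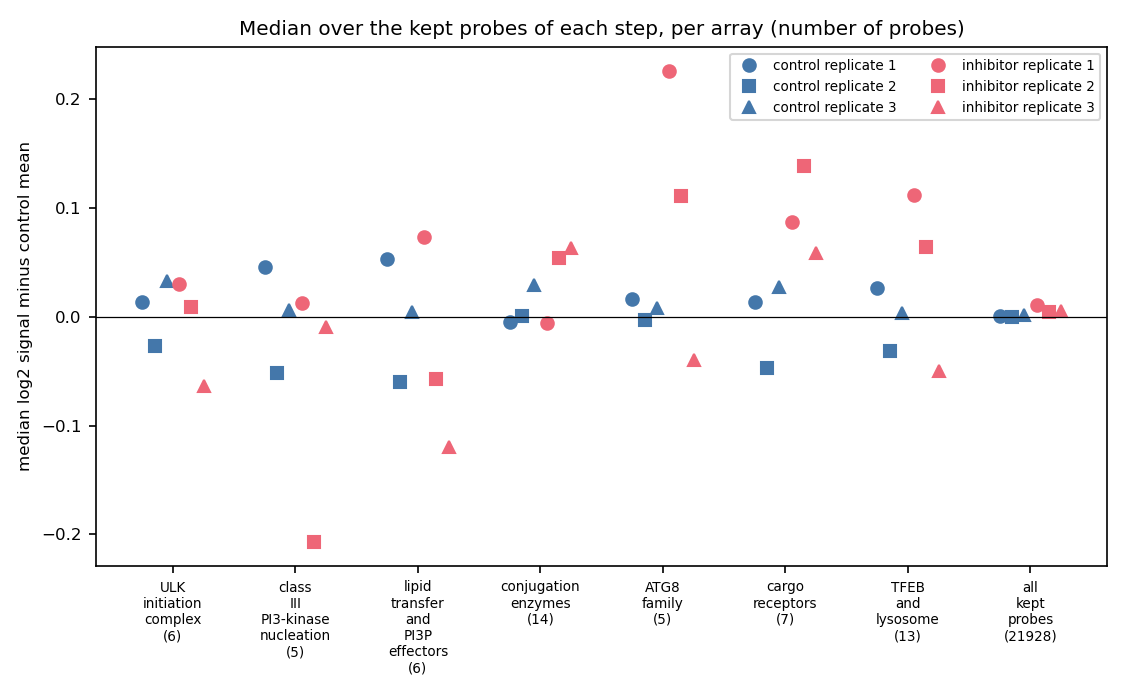
Median, over the kept probes of each step, of the log2 signal minus the control mean of the same probe (vertical axis), for each of the 6 arrays and, at the right, for all kept probes. In the ATG8 family and among the lysosomal probes, inhibitor replicates 1 and 2 lay above all controls (0.23 and 0.11, and 0.11 and 0.06) and inhibitor replicate 3 below them (−0.04 and −0.05). Controls are part of the mean that was subtracted and inhibitor arrays are not, so inhibitor arrays tend to lie further from 0 by construction.

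The arrays were then compared by their median over the probes of each step, relative to the control mean. The controls are part of that mean and the inhibitor arrays are not. Inhibitor arrays therefore tend to fall outside the controls by construction, and differences in spread between steps were not tested. For the lysosomal genes inhibitor replicates 1 and 2 had medians of 0.11 and 0.06 relative to the control mean and inhibitor replicate 3 of −0.05, while the controls lay between −0.03 and 0.03. For the cargo receptors all 3 inhibitor arrays were above the controls, at 0.09, 0.14 and 0.06 against −0.05 to 0.03. The class III PI3-kinase genes had their lowest median, −0.21, in inhibitor replicate 2. For the lipid transfer and PI3P-binding genes inhibitor replicate 1 was at 0.07 and inhibitor replicate 3 at −0.12, on either side of the controls.

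Control replicate 2 and inhibitor replicate 3, which stood apart over the whole array, were then each set against the other arrays of their own group, a comparison chosen after the data had been seen. Of the 56 member probes 25 (44.6%) were lower on both arrays and 9 (16.1%) higher on both, where all kept probes had 31.0% and 31.1%. Lysosomal probes were lower on both in 9 of 13 and higher on both in 0, and the lipid transfer and PI3P-binding probes were lower on both in 5 of 6. The 13 lysosomal probes read only 5 genes, with 6 probes from LAMP2, so they do not count as independent members. The 6 lipid transfer and PI3P-binding probes read 5 genes. Of the 14 conjugation probes, which read 10 genes, 2 were lower on both and 6 (42.9%) higher on both, beside 31.1% of all kept probes. Among those 6, ATG4C was higher by only 0.007 on inhibitor replicate 3. ATG16L1 probe ILMN_1725707 was higher by only 0.023 on control replicate 2. These counts per step are small and were not tested. GABARAPL1 was lower by log2 differences of −0.35 and −0.45, ATG13 of −0.30 and −0.29, 1 CTSB probe of −0.25 and −0.42, and CTSD of −0.13 and −0.51. MAP1LC3B was higher on both, by 0.23 and 0.16. With both arrays left out 8 member probes (14.3%, beside 15.5% of all probes in that fit) had an unadjusted p under 0.05 and 0 passed the adjusted threshold.

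**Figure D5:**
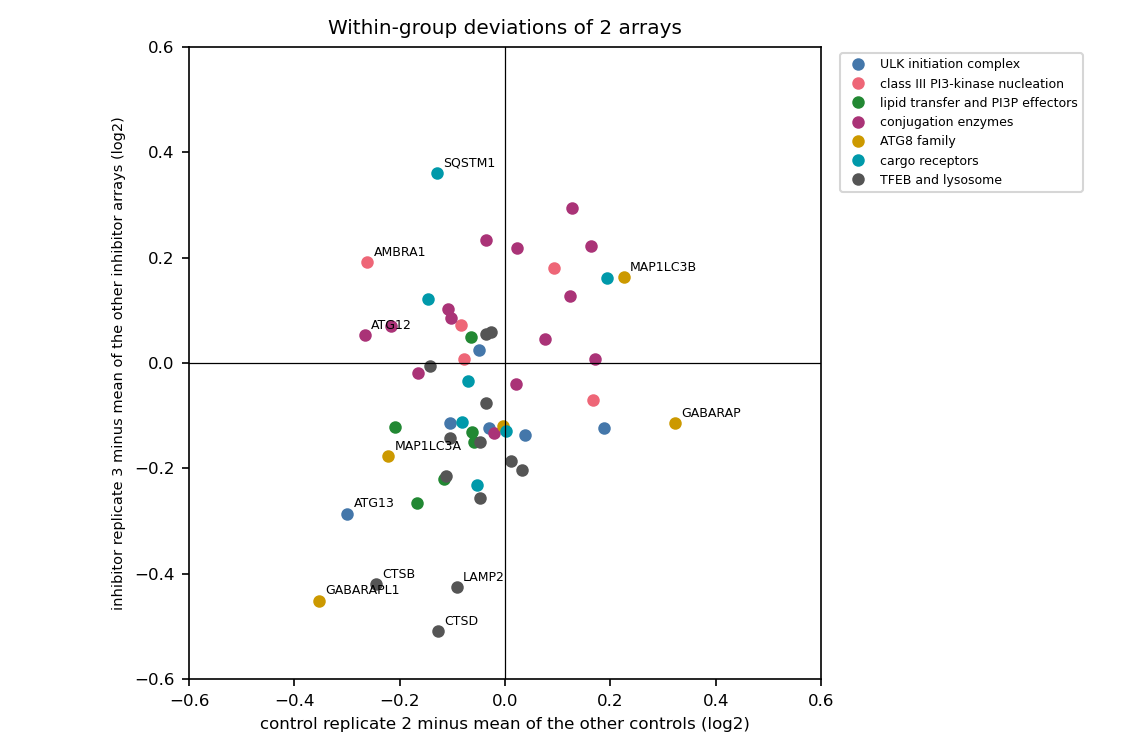
Log2 difference of control replicate 2 from the mean of the other controls (horizontal axis) against that of inhibitor replicate 3 from the mean of the other inhibitor arrays (vertical axis), for the 56 kept probes coloured by step. The lower left quadrant holds 25 probes, among them GABARAPL1, ATG13, CTSD and 9 of the 13 lysosomal probes, and the upper right holds 9.

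Genes around the pathway were covered by lists of 147 genes, of which 130 had a kept probe, 183 probes in all. Of these 0 passed the adjusted threshold, and 16 (8.74%) had an unadjusted p under 0.05, beside 10.0% of all kept probes. Nutrient sensing upstream of ULK1 (mTORC1 and AMPK) had 18 of 30 probes with positive fold changes, 1 probe on each side at an unadjusted p under 0.05 and a median of 0.03. The AMPK subunits PRKAG1 and PRKAA1 were those probes, at log2 fold changes of 0.18 ± 0.07 and −0.22 ± 0.08 (SE, adjusted p = 0.464 and 0.463). Other core and fusion genes split evenly at 18 and 18, with a median of 0.00. The lowest p on the lower side belonged to MTMR3, a PI3P phosphatase, at −0.22 ± 0.08, and WDR45B (WIPI3), a PI3P-binding protein, at −0.27 ± 0.10 (SE, adjusted p = 0.452 and 0.456). On the higher side it belonged to TP53INP2, at 0.24 ± 0.09 (SE, adjusted p = 0.459), with all inhibitor arrays above all controls.

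Lysosomal hydrolases had 21 positive and 21 negative fold changes, with 2 of 42 probes higher and 6 of 42 lower at an unadjusted p under 0.05, where all kept probes had 4.83% and 5.19%. SMPD1, the acid sphingomyelinase, was at 5.45 ± 0.15 in the controls and 5.07 ± 0.10 in the inhibitor arrays (SD, n = 3), a log2 fold change of −0.38 ± 0.10 (SE, limma adjusted p = 0.440). NAGLU, which degrades heparan sulfate, was at 7.10 ± 0.02 and 6.80 ± 0.07 (SD, n = 3), a log2 fold change of −0.30 ± 0.07 (SE, limma adjusted p = 0.440). In both genes all inhibitor arrays were below all controls. Cathepsin H (CTSH) had the opposite sign, 0.30 ± 0.12 (SE, adjusted p = 0.470), with overlapping groups.

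Lysosomal membrane proteins had 10 positive and 10 negative fold changes, and the lipid transporter ABCA2 had the lowest at −0.36 ± 0.11 (SE, adjusted p = 0.440). Subunits of the vacuolar ATPase, the proton pump of the lysosome, had 9 positive and 10 negative, with 0 of 19 at an unadjusted p under 0.05 and a median of −0.01. Of the transcriptional regulators 16 of 24 probes were positive, and TFE3, a relative of TFEB, was detected and measured 5.36 ± 0.13 in the controls and 5.56 ± 0.04 in the inhibitor arrays (SD, n = 3). Its inhibitor arrays were all above the controls, at a log2 fold change of 0.20 ± 0.09 (SE, limma adjusted p = 0.488). Other cargo and mitophagy receptors had 7 positive and 5 negative fold changes and 0 of 12 probes at an unadjusted p under 0.05.

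Agreement between probes of 1 gene was mixed. Of the 10 members with more than 1 kept probe, 8 had the same sign on all of them and ATG3 and LAMP2 did not. The spread between replicate arrays was like that of other genes: the median residual SD was 0.102 for the member probes and 0.107 for all kept probes. Of the 15 member probes that were not kept, 13 were detected on 0 arrays.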

How the data were processed

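The deposited tables of each array held the mean bead signal of every probe, an intensity on a linear scale, with the SD over beads, the number of beads and a detection score, a fraction from 0 to 1 taken as the complement of a detection p. BeadStudio, of a version not stated here, was used by the authors, per the submitters' processing notes. The values are neither background-subtracted nor normalized. A deposited table of the whole series, also an intensity, served as an alternative and carried the probe names: array tables were joined to it through the ranks of each probe across the 6 arrays, a combination that no other of the 48803 probes shared. Of these probes 28098 had 1 gene symbol, 13 had several and 20692 had none here. The files name no genome build, so probes have no coordinates.

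Signals were background-corrected, quantile-normalized and log2-transformed by the neqc function of limma 3.58.1 (R 4.3.3, offset 16), starting from the deposited intensities. A detection score above 0.95 on 3 or more arrays was required. The test was two-sided, by lmFit and eBayes with no block for replicate number and with Benjamini-Hochberg adjustment over all 21928 probes and a threshold of 0.05. All adjusted p-values are from limma. Probes of 1 gene were not averaged. The fit was tested on simulated data with known changes, drawn with the spread of each probe and with independent noise on each array. At the adjusted threshold it recovered 22% of 1.25-fold, 60% of 1.5-fold, 80% of 2-fold and 100% of 4-fold changes. Each fold had 50 changed probes, and there were 6 false calls. Changes of the size seen in the members would thus mostly be missed. Precision is limited by the number of arrays. The labels do not say whether the numbers pair samples across the groups, and no pairing was used. Same-numbered samples had correlations of their deviations of 0.0890, −0.258 and −0.213, which cannot settle how they were set up.

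Members and lists were chosen with earlier results of these data known. Values on every array are given for 19 named probes. These are the probes of the reported targets, those with an unadjusted p under 0.05 and the highest and lowest of each step. For some other members, picked after their values were seen, values on every array are given too. Each other list could contribute up to 2 genes per direction, those of lowest p. The motif search, bead errors and the fit without the arrays that stood apart were added after the data were seen. The mock transfection that the protocol mentions was not analysed here. Figures were drawn with matplotlib 3.10.9 in Python 3.11.15.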

Additional observations from a re-analysis of the deposited data

How the results depend on the processing

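Under all 17 alternatives 0 member probes passed the adjusted threshold. The count at an unadjusted p under 0.05, 7 of 56, became 22 with median centring (39.3%, beside 19.8% of all probes), where the median of the members was 0.17, which is 0.07 above that of all probes. Members and all probes were not matched for brightness in that comparison. Leaving out 1 array at a time gave counts of 4 (without control replicate 2, 7.14% beside 6.79% of all probes) to 10 (without inhibitor replicate 3, 17.9% beside 19.4%) and medians of 0.02 to 0.05. The fit with the replicate number as a block gave 8 (14.3%, beside 7.82% of all probes) and a lowest adjusted p of 0.636. Of 322 values of the 19 named probes, 310 kept their direction and 12 reversed. Under median centring the median fold change of all probes was 0.10, and ATG2B (0.070) and LAMP2 probe ILMN_1752351 (0.12) changed sign. BECN1 was then at 0.15, ATG9A at −0.058 and ATG16L1 at −0.12. With array weights BECN1 was at −0.015 and BNIP3L at −0.00082. Without both arrays that stood apart, an alternative chosen after seeing the data, BECN1 was at −0.011, GABARAP at 0.032 and BNIP3L at −0.036. With 1 array left out BECN1 ran from −0.042 to 0.075, ATG2B from −0.10 to 0.021 and SQSTM1 from −0.30 to 0.023. The causes were not tested. The other 13 named probes kept their direction under every alternative, but all 19 moved over 1.5 times in size under at least 1. With an offset of 50 ATG13 was at −0.16 and MAP1LC3A at 0.13; both lie near background, and 3 arrays per group limit all intervals.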
